A study of Chlorocebus aethiops with 12 samples.

Results

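The response of COS-1 cells to dexamethasone (Dex) was measured in the presence of MDFIC, on the 6 arrays of cells transfected with both the S211A glucocorticoid receptor (GR) and MDFIC, out of 12 arrays in the series. The members were taken by their titles: 3 vehicle arrays and 3 arrays of cells given 100 nM Dex for 6 h. COS-1 cells are an established line that grew out of African green monkey kidney and look like fibroblasts. S211A is a GR mutant that lacks a phosphorylation site, and every cell group of the series received it. The labels describe the 3 samples of a group as biological replicates and give neither the amounts of plasmid nor the share of cells transfected. The 6 arrays of cells with S211A alone, 3 under vehicle and 3 under the same Dex treatment, served as the comparison. The question put by the series is whether MDFIC alters GR-regulated transcription when this site cannot be phosphorylated.

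GR is a hormone-activated transcription factor. Without hormone it is held in the cytoplasm by chaperones, and with a glucocorticoid such as Dex it enters the nucleus, binds DNA at glucocorticoid response elements and raises or lowers transcription of nearby genes. MDFIC is a protein with an I-mfa domain, a domain known for binding transcription factors. Medium with charcoal-stripped serum, used here before treatment, is a standard way to remove steroids from the culture.

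RNA was hybridised to one-colour arrays with human probes, so that monkey RNA was read by human sequences. The files identify a probe's target by an accession and do not pair accessions with gene names. Results are therefore given by accession, with at most 2 rises and 2 falls named for each comparison. For want of gene names, markers of kidney, fibroblast and other cell types and the transfected genes were not analysed here. A level is the log2 signal of a spot relative to the 75th percentile of its array, and a change is a difference of such levels. Levels of different accessions come from different probes with different affinities. They are used below only to sort accessions into brightness classes, which say how bright a probe was and not how abundant an RNA was. The arrays read bulk RNA, in which fewer responding cells and a smaller response per cell cannot be told apart.

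Vehicle replicates 1 and 2 with MDFIC lay on slide 2, whereas vehicle replicate 3 and all 3 Dex arrays lay on slide 3. Of the cells without MDFIC, the 3 vehicle arrays and Dex replicate 1 lay on slide 1 and Dex replicates 2 and 3 on slide 2. No slide held vehicle arrays of both cell groups, so that in a comparison of vehicle levels with and without MDFIC slide and cell group cannot be told apart. In cells with MDFIC, between 76.2% and 77.3% of probes were well above background on the vehicle arrays, against 77.6% to 80.6% on the Dex arrays. Dex replicate 2 stood apart from the other Dex arrays. Its median absolute difference was 0.18 from replicate 1 and 0.19 from replicate 3 on the log2 scale, against 0.11 between replicates 1 and 3, and limma gave it the lowest weight of the 12 arrays (0.28). Vehicle replicate 3 differed from the mean of the slide 2 vehicle arrays by a median of 0.09 and from the Dex mean on its own slide by a median of 0.15. Precision is limited by the 3 arrays in each group.

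Dex raised 1539 accessions and lowered 918 in cells with MDFIC, of 24586 tested with limma at a Benjamini-Hochberg adjusted p under 0.05. These 2457 calls were 9.99% of the accessions tested, with 6.26% higher and 3.73% lower. Most changes were small. The median rise was 0.47 and the median fall -0.33 on the log2 scale, and over all accessions tested the median change was 0.05. The levels of the Dex and vehicle arrays did not overlap in 2453 of the 2457. Among all accessions tested, 18.7% lay higher on every Dex array than on any vehicle array and 12.9% lay lower, so that separation of the groups is common here beyond the calls. The largest changes were mostly rises: 185 accessions (0.752%) rose at least 2-fold and 19 (0.0773%) fell at least 2-fold. These numbers moved with the processing, to 51 and 6 with normexp, a background correction that adds an offset and so pulls the changes of dim probes toward 0, and to 353 and 46 with array weights. The median rise of the 185 was 1.30, and 0.69 after normexp.

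**Figure D1:**
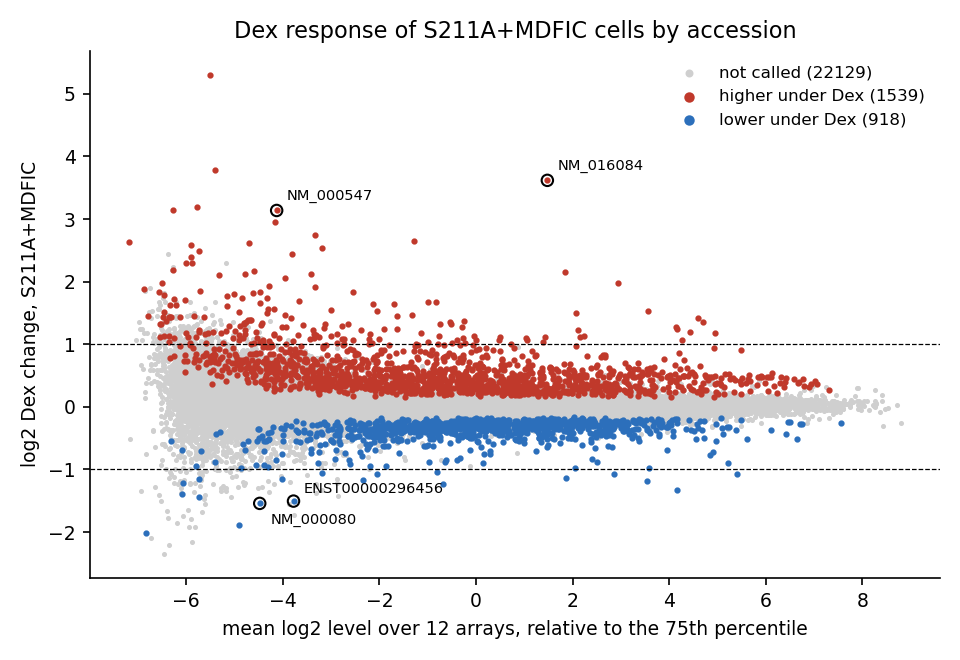
Each point is 1 of 24586 accessions. The horizontal axis is its mean log2 level over the 12 arrays and the vertical axis its log2 Dex change in S211A+MDFIC cells, with dashed lines at 2-fold, red for the 1539 called rises, blue for the 918 called falls and circles for the 4 named accessions. The rises reach further from 0 than the falls, and most changes of over 2-fold lie at low levels.

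The balance of rises and falls moved with the scaling of the arrays. Rises made up 62.6% of the calls with the 75th percentile, 54.2% with quantile normalization (1330 higher and 1126 lower), 54.2% with each array centred on its median (895 and 755) and 81.1% with the deposited values unscaled (420 and 98). The number of calls also rested on single arrays. Leaving out vehicle replicate 1 gave 1180 calls and leaving out vehicle replicate 2 gave 1259. Leaving out a Dex array gave 1538 calls for replicate 1, 4699 for replicate 2 and 1322 for replicate 3. Of the 4699, 2299 were among the 2457. Changes of at least 2-fold numbered 148 to 172 rises and 13 to 31 falls when any array with MDFIC other than Dex replicate 2 was left out, and 315 rises and 29 falls without Dex replicate 2.

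Because all Dex arrays lay on slide 3, a fit with slide as a block takes the Dex change from that slide alone, as the difference between 3 Dex arrays and vehicle replicate 3. This fit called 597 accessions (2.43%), with 454 rises (1.85%) and 143 falls (0.582%). Of these, 536 had also been called without the block. The changes measured within slide 3 had the sign of the fit without the block in 2456 of the 2457, with a median of 0.43 for the rises and -0.31 for the falls. Vehicle replicate 3 and the Dex arrays enter both values, so that the sign is in part built in. Among all accessions tested the sign was the same in 85.4%. The median standard error over all accessions was 0.10 without and 0.13 with the block. The arrays of slide 3 taken by themselves gave 0 calls in limma, with 2042 accessions at an unadjusted p under 0.05.

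The rise that was largest among accessions well above background on all 6 arrays was that of NM_016084. Its log2 level was -0.33, -0.24 and -0.41 on the vehicle arrays and 3.23, 3.44 and 3.21 on the Dex arrays. All Dex arrays lay far above all vehicle arrays, and the arrays within a group were close together. The group means were -0.32 ± 0.09 and 3.29 ± 0.12 (SD, n = 3), so that the signal was 12.3 times higher under Dex (a log2 change of 3.62 with an SE of 0.08; adjusted p = 2.92e-08 in limma). A second probe of the same accession rose by 3.63, and with slide as a block the change of the first was 3.70. In cells with S211A alone the levels were -0.28, -0.37 and -0.39 under vehicle and 3.35, 3.35 and 3.18 under Dex. The vehicle levels and the Dex levels were thus close with and without MDFIC. The Dex responses differed by -0.02 on the log2 scale, with a half-width of the 95% interval of 0.25 (limma adjusted p = 0.957). For the second probe the responses differed by 0.42, with the larger rise with MDFIC, where the SE of its Dex change was 0.08. The closeness of the responses is thus shown for the first probe only.

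NM_000547 showed the next largest rise. Its level was -6.29, -5.86 and -5.80 under vehicle and -2.84, -2.84 and -2.86 under Dex, with no overlap and with the wider spread under vehicle, where it was dim. The means were -5.98 ± 0.27 and -2.85 ± 0.01 (SD, n = 3), which is an 8.79-fold rise. In limma the log2 change was 3.14 (SE 0.13) at an adjusted p = 9.41e-07. The rise was 2.95 with slide as a block and 1.46 with normexp, and it passed in both. In S211A cells the level went from -5.03, -4.83 and -4.96 to -2.51, -2.85 and -2.83, a change of 2.21. The Dex levels overlapped between the cell groups, while every vehicle level with MDFIC, on slides 2 and 3, lay below every vehicle level without it, on slide 1. The response was larger with MDFIC by 0.93 with a half-width of 0.42, a difference that did not pass (limma adjusted p = 0.0996).

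The named falls lost their calls in more settings than the named rises. NM_000080 lay at -4.06, -3.93 and -4.14 under vehicle and at -5.74, -5.66 and -5.34 under Dex. The groups did not overlap, and the fall was 2.91-fold (log2 -1.54, SE 0.32, limma adjusted p = 0.0166). It did not pass with slide as a block (log2 -1.44, adjusted p = 0.207), with normexp (-0.52, adjusted p = 0.0603), or without vehicle replicate 1, vehicle replicate 2 or Dex replicate 1 (adjusted p = 0.059, 0.0643 and 0.0595 in limma). In S211A cells its levels were -3.86, -3.75 and -4.25 under vehicle and -3.91, -5.24 and -3.83 under Dex. There the groups overlapped, and Dex replicate 2 lay far below the other Dex arrays. The SD was 0.79 on the S211A Dex arrays, against 0.11 and 0.21 on the vehicle and Dex arrays with MDFIC. All of these arrays enter the SE. With only the 6 compared arrays the fall passed at an SE of 0.12 (limma adjusted p = 0.00331). Without S211A Dex replicate 2 it passed at an SE of 0.14 (limma adjusted p = 0.000324). The responses differed by -1.17 with a half-width of 1.03 (limma adjusted p = 0.464).

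ENST00000296456 lay at -3.18, -2.98 and -3.14 under vehicle and at -4.74, -4.60 and -4.48 under Dex, again with no overlap. Its fall was 2.84-fold (log2 -1.50, SE 0.38, limma adjusted p = 0.0354). In S211A cells it lay at -2.99, -2.97 and -2.99 under vehicle and at -4.09, -5.54 and -3.62 under Dex, a change of -1.44 that did not pass (limma adjusted p = 0.0551). The Dex arrays without MDFIC spread over a range that held all 3 Dex levels with MDFIC. The test of the difference gave -0.07 with a half-width of 1.20, too wide to tell the responses apart or to call them alike. The fall with MDFIC did not pass with slide as a block (-1.47, adjusted p = 0.293). It also did not pass in 8 of 12 fits with 1 array left out (adjusted p up to 0.111 in limma). Among these were the fits without vehicle replicate 1, 2 or 3, or without Dex replicate 1 or 3, with MDFIC. The widely spread S211A Dex arrays enter the SE of this fall. With only the 6 compared arrays the fall passed at an SE of 0.0955 (limma adjusted p = 0.00182). Without S211A Dex replicate 2 it passed at an SE of 0.12 (limma adjusted p = 0.000133).

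**Figure D2:**
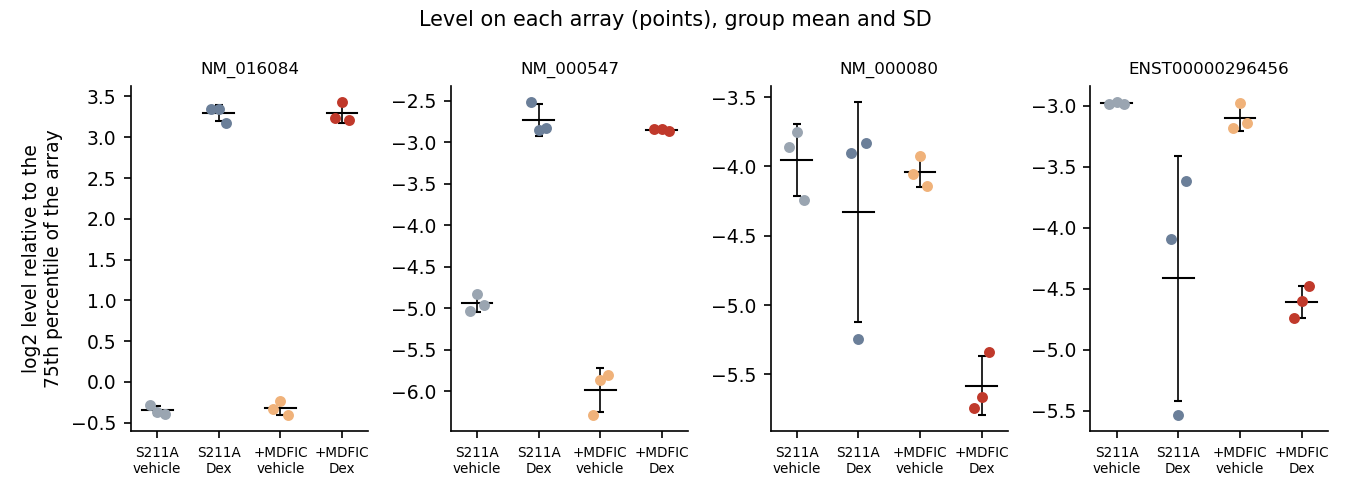
Log2 level of the 4 named accessions on each of the 12 arrays, relative to the 75th percentile of the array. Points are arrays, horizontal lines group means and bars the SD (n = 3). The plotted probe of NM_016084 has nearly the same levels with and without MDFIC. The falls show a wide spread on the S211A Dex arrays, from -5.54 to -3.62 for ENST00000296456.

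Larger rises were called more often in settings other than the one that chose them. Of the 376 rises under 1.25-fold, 1.33% passed with slide as a block, against 48.7% of the 343 rises of 1.5 to 2-fold, 65.6% of the 160 rises of 2 to 4-fold and 84% of the 25 rises of at least 4-fold. The shares called in each of the 6 fits that left out 1 array with MDFIC were 9.84%, 69.1%, 73.8% and 88% in these classes. Of the 185 rises of at least 2-fold, 126 passed with the block and 140 in all 6 leave-outs. Among all accessions tested, 2.42% passed with the block with the same sign and 4.19% in all 6 leave-outs. These fits reuse arrays of the fit that chose the rises, so they are no independent check. Larger changes pass a test more readily at a given spread, so the order of these classes is partly fixed by the test. The falls were fewer in each class above 1.5-fold. Of the 69 falls of 1.5 to 2-fold, 59.4% passed with the block, and of the 19 falls of at least 2-fold 8 passed with it.

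The arrays of cells without MDFIC took no part in the choice of direction, although each accession's variance was estimated over all 12 arrays. The brightness filter and the choice of probe used all 12 arrays too, so a dim probe could enter through a Dex group where it read high. The agreement below is therefore not fully independent. Among probes well above background on all 12 arrays, 117 rises and 15 falls of at least 2-fold were called with MDFIC. In S211A cells 148 of the 185 rises of at least 2-fold were also called as rises, and 177 had the same sign. Among all accessions tested, 6.5% were called for Dex in S211A cells, 4.31% as rises and 2.2% as falls, 0.793% as rises and 0.0488% as falls of at least 2-fold, and 62.7% had the same sign in both cell groups. Of the 185, 131 were well above background on all 6 arrays with MDFIC, and so were 10 of the 25 rises of at least 4-fold. For the others the fitted change is partly set against background and is no exact fold. Of the 25, 22 were called as rises in both cell groups. The median change of all 25 with MDFIC was 0.96 after normexp. Of the 19 falls of at least 2-fold, 8 were called as falls in S211A cells and 14 had the same sign, with medians of -1.19 with and -0.39 without MDFIC. The accessions were chosen for large changes with MDFIC, which by itself makes the medians there the larger ones.

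**Figure D3:**
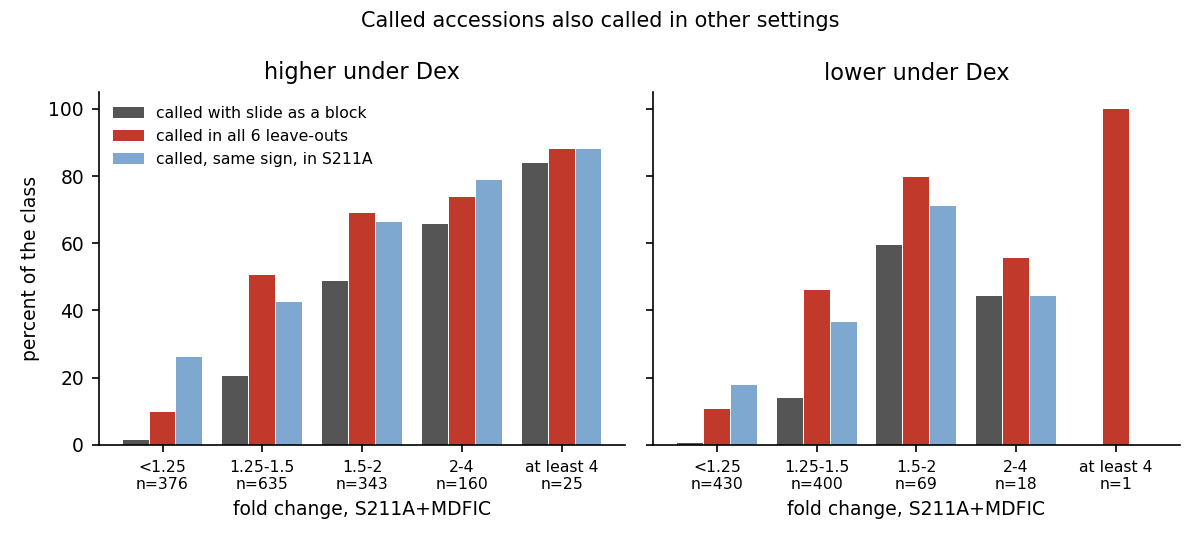
Bars give the percent of called accessions in each fold class of S211A+MDFIC cells that were also called with slide as a block (grey), in all 6 fits leaving out 1 array with MDFIC (red), or with the same sign in S211A cells (blue). The numbers under the classes are accessions. All 3 shares climb with the size of a rise, and the class of falls of at least 4-fold holds 1 accession.

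Array by array, the 185 rises of at least 2-fold had median levels of 1.33, 1.26 and 1.33 over the vehicle mean on Dex replicates 1, 2 and 3 with MDFIC. On the S211A Dex arrays, set against the S211A vehicle mean, the medians of the same accessions were 1.20, 1.22 and 1.24. All 6 Dex arrays lay well above the 6 vehicle arrays, whose medians were between -0.02 and 0.01. Vehicle medians near 0 are built in, as each vehicle array is set against the mean of its own group. For all 1539 rises the medians were 0.48, 0.42 and 0.50 with MDFIC and 0.27, 0.30 and 0.31 without it. For the 19 falls of at least 2-fold they were -1.26, -1.43 and -1.05 with MDFIC and -0.41, -0.67 and -0.31 without it. S211A Dex replicates 2 and 3 shared slide 2 with vehicle replicates 1 and 2 of the cells with MDFIC, and slide enters these medians. The accessions were chosen by their changes with MDFIC, which by itself moves the medians there further from 0. These medians therefore do not show whether the responses differ with MDFIC.

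**Figure D4:**
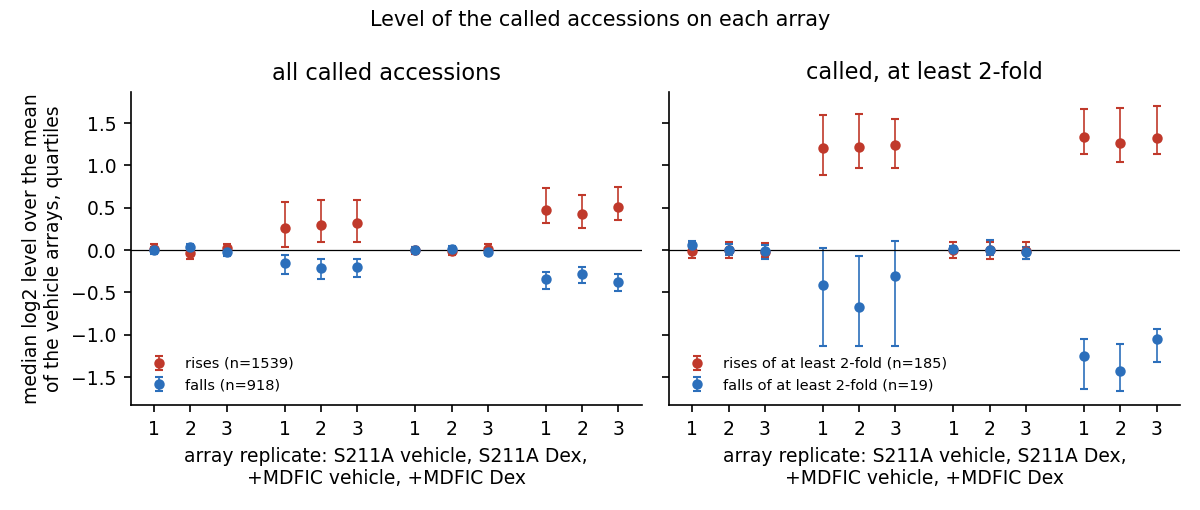
Median log2 level of the called accessions on each array over the mean of the vehicle arrays with the same transfection, with quartiles as bars. The left panel holds all called rises and falls and the right panel those of at least 2-fold. In the right panel the rises lie between 1.20 and 1.33 on all 6 Dex arrays, whereas the falls lie nearer to 0 without MDFIC. The accessions were chosen by their changes with MDFIC, which by itself moves the medians there further from 0.

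When the responses to Dex with and without MDFIC were tested against each other, 66 accessions (0.268%) were called, and 1 of the 185 rises of at least 2-fold was among them. Over these 185 the median difference was 0.09 on the log2 scale and the median half-width of its 95% interval 0.46, so that differences of this size would often be missed. Of the 66, 64 (0.26%) had the higher response with MDFIC and 2 (0.00813%) the lower, and 62 of the 64 were called as rises there. The median Dex change of the 64 with MDFIC was 0.52. In 37 accessions a called rise with MDFIC stood against a called fall without it. With slide as a block the difference was no longer called in any of the 64, and limma called 39 other accessions instead (1796 at an unadjusted p under 0.05), and 5 of the 64 kept their call as rises with MDFIC. The difference was called in 0 accessions without S211A vehicle replicate 1, S211A Dex replicate 1 or 3, vehicle replicate 1 with MDFIC or Dex replicate 1 with MDFIC, at 1793 to 2449 with an unadjusted p under 0.05 in limma. Among the cells without MDFIC, leaving out vehicle replicate 2 or 3 gave 137 or 2 calls and leaving out Dex replicate 2 gave 3. Among those with MDFIC, leaving out vehicle replicate 2 gave 1 call, and leaving out Dex replicate 2 or 3 gave 284 or 2.

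Of the accessions with the higher response with MDFIC, leaving out identifiers that repeat a probe name, NM_013271 had the largest difference. With MDFIC it lay at -0.02, -0.10 and 0.08 under vehicle and at 1.33, 0.89 and 0.94 under Dex, a rise of 1.07 (SE 0.15, limma adjusted p = 0.00173). Without MDFIC its levels went from 1.02, 0.58 and 0.87 to 0.26, -0.001 and -0.05, a change of -0.75. The directions were thus opposite, and the responses differed by 1.82 (SE 0.21, limma adjusted p = 0.0306). Its second probe rose by 0.28 with MDFIC and gave a difference of 0.34. BC033110 rose by 0.90 with MDFIC (SE 0.19, limma adjusted p = 0.0169), from 0.81, 0.49 and 1.03 to 1.96, 1.48 and 1.59, and the responses differed by 1.71. Neither difference passed with slide as a block (1.54 and 1.17, limma adjusted p = 0.184 and 0.445).

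The other direction held 2 accessions. NM_025165 went from 0.76, 0.53 and 0.70 under vehicle to 0.41, 0.15 and 0.22 under Dex with MDFIC, a fall with no overlap (log2 -0.40, SE 0.08; adjusted p = 0.0134 in limma). The responses differed by -0.71. All 6 levels with MDFIC, on slides 2 and 3, lay above all 6 without it, on slides 1 and 2, which were between -1.92 and -1.52. Its second probe rose by 0.29 (limma adjusted p = 0.00824), so that the probes disagree in direction. That probe gave a difference of -0.03 between the responses, and the mean over both probes gave -0.37, which did not pass (limma adjusted p = 0.112). NR_026791 cleared background only under Dex without MDFIC, on 3 of 3 arrays there and on 0 of the 6 with MDFIC, so that the size of its difference is set against background. After normexp the difference was -0.13 (limma adjusted p = 0.763).

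Rises outnumbered falls most among dim accessions. The accessions were put into 4 classes of equal size by their mean over all 12 arrays. Among the 6147 dimmest, 3.58% rose and 0.553% fell, with 91 rises of at least 2-fold. Among the 6147 brightest, 6.85% rose and 5.66% fell, with 19 such rises. Rises made up 86.6%, 72.2%, 56.9% and 54.8% of the calls from the dimmest class to the brightest. The median change over all accessions of a class, called or not, went the same way: it was 0.17, 0.06, 0.01 and 0.01. For the dimmest class this median was 0.16 within slide 3, 0.10 after normexp, 0.10 with median centring and 0.15 for Dex in S211A cells. A dim probe was tested only if some group had it well above background on all 3 arrays, so many entered through the group where they read high, and more probes were well above background on the Dex arrays. The positive medians of dim accessions are partly set by this rule and are given as a description. Its part in the rises was not tested.

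**Figure D5:**
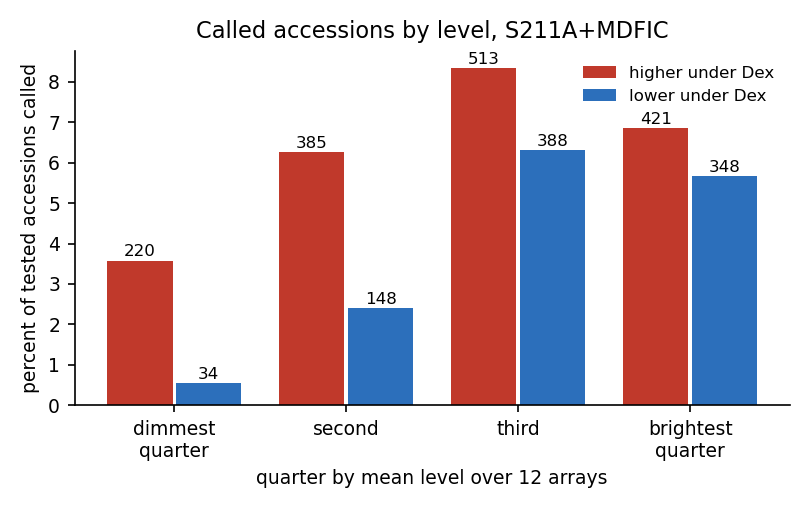
Percent of the tested accessions called higher (red) or lower (blue) under Dex in S211A+MDFIC cells, in 4 classes by mean level over the 12 arrays. The numbers on the bars are accessions. In the dimmest class 220 rose and 34 fell, and in the brightest 421 rose and 348 fell.

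Some accessions crossed the background. There were 139 that were well above background on all 3 Dex arrays and on no vehicle array with MDFIC, and 18 with the opposite pattern. Of the 139, 35 were called, and 15 passed with slide as a block. The direction of these calls was fixed by the choice of the pattern. Set against the lowest signal well above background, or the probe's own signal where that was higher, these 35 rose at least 1.37-fold to at least 11.7-fold, with a median bound of 1.91. Of the 35, 20 were also called as rises in S211A cells, and 15 had the same all-or-none pattern there. Slide enters that pattern, as fewer probes cleared background on slide 1. The shares there were 67.8% to 71.2% for S211A vehicle and 71.7% for S211A Dex replicate 1. S211A Dex replicates 2 and 3, on slide 2, had 77.3% and 79.8%. The part of slide in the S211A patterns was not tested. After normexp 11 of the 35 passed. Of the 18 with the opposite pattern 2 were called, with bounds of 1.94-fold and 2.95-fold, and 0 showed this pattern in S211A cells. Neither of the 2 passed with slide as a block in limma.

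Accession types were described next, after their values had been seen and without a test. The RefSeq prefix NM_ stands for a messenger RNA and NR_ for a non-coding RNA, while the other types are mostly sequences with less curation. Of the 16443 NM_ accessions, 6.9% rose and 5% fell. Of the 953 NR_ accessions, 5.35% rose and 1.47% fell, with 10 rises and 0 falls of at least 2-fold. The types differ in probe brightness: 59.8% of NM_ accessions and 27.4% of NR_ accessions lay in the brighter 2 classes. Among the brightest class alone, 316 NM_ accessions rose and 329 fell, while 11 NR_ accessions rose and 2 fell, and 94 of all other types rose and 17 fell. From here on NR_ accessions are counted with the other types, as all types but NM_. In the brighter 2 classes together rises were 51.2% of the NM_ calls and 80.4% of the calls of all types but NM_. These shares were 42.1% and 70% with median centring. With slide as a block they were 73.1% (201 rises and 74 falls) and 79.5% (31 and 8), from far fewer calls. The median change over all accessions of these classes, called or not, was -0.0089 for NM_ and 0.067 for all types but NM_. Within slide 3 it was -0.0032 and 0.032.

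Other probes of an accession gave a second reading of the same RNA. For the rises, 430 further probes had been tested, of which 364 rose too in the fitted value and 145 were called as rises, with a median of 0.28 against 0.41 for the probes that stood for the accession. For the falls, 332 of 401 further probes had the same sign and 101 were called as falls. In 6 further probes a call had the opposite direction, 3 for the rises and 3 for the falls. All 30 further probes of rises of at least 2-fold had the same sign, and 21 of them were called. Among accessions that were not called, 68.9% of the 5813 further probes had the sign of the chosen probe, and 294 (5.06%) were called with that sign.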

How the data were processed

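The deposited values, per the file headers, are intensity readings on a linear scale from Feature Extraction 12.0.0.7, with local background subtracted and the signal detrended within each array. Well-above-background and outlier flags were used as the authors deposited them, per the file headers. The saturation flag was only counted and marked 0 non-control spots on every array. The authors' series-wide table repeats this intensity unscaled, in 45015 of 45015 spots on every array.

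Non-control spots were put on the log2 scale relative to the 75th percentile of their array, 945 outlier spots were set to missing and spots of a probe were averaged. A probe was kept (31230 were) if every array of some group had it well above background and each group had at least 2 values. The brightest probe stood for its accession, which gave 24586 accessions. limma 3.58.1 in R 4.3.3 fitted the 4 group means over 12 arrays, two-sided, with Benjamini-Hochberg adjustment over all accessions and calls at an adjusted p under 0.05. The fit was also run on simulated data with known changes and independent noise. Those data held no slide effect, so they cannot speak to the part of slide in the calls. Figures used matplotlib 3.10.9.

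The comparison and its lists were chosen with earlier results of these data known. The rule for named genes and the gene lists asked for symbols, which no file used here gives. The lists were not analysed here, and the rule's fallback was used: the 2 largest rises and 2 largest falls among called accessions well above background on all 6 arrays with groups that do not overlap, and the 2 largest each way among called differences, leaving out identifiers that repeat the probe's own. Promoter, probe and protein sequences were not used here. The labels call the replicates biological and name no separate cultures, so p-values measure the spread between these samples.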

Additional observations from a re-analysis of the deposited data

Results flagged for a closer look

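The difference between the Dex responses with and without MDFIC was called in 66 accessions by a test of the difference itself. Among them, NM_013271 showed a difference of 1.82 and BC033110 of 1.71, both higher with MDFIC, and NM_025165 of -0.71 and NR_026791 of -2.37, both lower with MDFIC. The value of NR_026791 is no exact difference: it was measurable above background in Dex-treated S211A cells only, and normexp gave -0.13 (limma adjusted p = 0.763). The second probe of NM_025165 gave -0.03. With slide as a block these 4 stood at 1.54, 1.17, -0.73 and -2.27, and none of the 4 passed in limma (adjusted p of 0.184 to 0.445).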

How the results depend on the processing

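The 2457 calls for Dex with MDFIC became 518 without scaling, 6487 with array weights, 1250 with only the 6 compared arrays, 597 with slide as a fixed block, 0 within slide 3 (2042 at an unadjusted p under 0.05 in limma) and 204 at 2-fold or more. They ranged from 1180 to 4699 with 1 array left out. The 66 differences became 126 with normexp, 147 for probes well above background on 12 arrays, 36 with the mean over probes, 187 with trend and robust moderation, 726 with array weights, 39 with slide as a fixed and 153 as a random block. They became 0 without scaling (943 at an unadjusted p under 0.05 in limma) and 0 with no filter on dim probes (3320), and ranged from 0 to 284 with 1 array left out. The cause of these shifts was not tested. With the replicate number as a block there were 2055 and 58 calls. Same-numbered vehicle and Dex arrays with MDFIC deviated together only weakly (r of 0.003 to 0.05 over 24510 accessions). For arrays of unlike number r was -0.10 to 0.07. These values gave no sign of pairing, but with 3 arrays in each group and vehicle arrays split over slides they cannot exclude it. No named change reversed its sign under the alternatives run. NM_016084 lay between 3.48 and 3.70 and NM_000547 between 1.46 and 3.24, and both missed the threshold only within slide 3 (limma adjusted p = 0.0554). NM_000080 lay between -1.75 and -0.52 and ENST00000296456 between -1.64 and -0.83. ENST00000296456 did not pass with the replicate block either (-1.50, limma adjusted p = 0.0511).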
